A study of Homo sapiens with 4 samples.

Results

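The BCL2 family decides whether the outer membrane of the mitochondrion stays intact. Its 10 genes considered here were set by name, with earlier results of these data known. The survival genes are BCL2, BCL2L1 and MCL1, and the pore-forming effectors are BAX and BAK1. The BH3-only death genes are BCL2L11, BBC3, PMAIP1, BMF and BIK. Every probe set annotated with 1 of these symbols alone was taken, which gave 28 probe sets of 9 genes among the 19775 genes so annotated. BBC3 was represented only by a probe set that carries several symbols and was not analysed here.

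The survival proteins hold BAX and BAK1 inactive. BH3-only proteins, made or released under stress, occupy the groove of the survival proteins or activate the effectors directly, after which BAX and BAK1 permeabilise the membrane and caspases are switched on. In the ovary, granulosa cells of follicles that do not ovulate die by this route, and gonadotropin signals, carried inside the cell by cyclic AMP, promote their survival.

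KGN cells, an established human line from a granulosa cell tumour, were measured on 4 Affymetrix HG-U133 Plus 2.0 arrays. Cells of siYT+8Br-cAMP and siYT received siRNAs against YAP and TAZ, the co-activators held back by the Hippo pathway, at 5 nM each, and cells of siNC+8Br-cAMP and siNC received a control siRNA at 10 nM. At 48 h after transfection all cells had fresh medium, which in siYT+8Br-cAMP and siNC+8Br-cAMP held 0.5 mM 8Br-cAMP, a membrane-permeable cyclic AMP analogue, and they were harvested 24 h later. All groups are 1 cell line, and each holds 1 array, so that no difference has a replicate check and sizes are given without a test unless an additive fit is named. The siRNA mixture does not separate YAP from TAZ.

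The 2% trimmed mean intensity was 500.1 on each array, and array medians lay between 56.9 and 66.3. Values under the floor of 62.6, which is the table-wide median, were set to it before differences were taken on the log2 scale, and folds against such a value are written as at least that fold. YAP1 read 1412 in siYT+8Br-cAMP and 1295 in siYT, against 4772 in siNC+8Br-cAMP and 4915 in siNC. WWTR1, the gene of TAZ, read 1154 in siYT+8Br-cAMP and 1028 in siYT, against 7048 in siNC+8Br-cAMP and 5366 in siNC. Probe sets of the same gene gave differences that scattered with an SD, over 7501 probe sets of 3019 genes, of log2 0.39 for siYT minus siNC and 0.37 for siNC+8Br-cAMP minus siNC. The SD was 0.54 for siYT+8Br-cAMP minus siNC+8Br-cAMP and 0.53 for siYT+8Br-cAMP minus siYT. It serves below as the measure of spread, and it holds no variation between cultures. The ACTB ratio of 3' to 5' signal was 1.35 on the siYT+8Br-cAMP array, against 1.07 to 1.14 on the other arrays. The GAPDH ratio was likewise highest on that array, at 1.13 against 0.89 to 0.96. The part of these ratios in the results was not tested. Intensities are of whole cultures, in which fewer cells of a kind and less RNA per cell cannot be told apart. Of 9 granulosa markers 6 were above the floor on every array, among them STAR and CYP19A1, steroidogenic genes that cyclic AMP induces. The other 7 summed to 3853 in siYT+8Br-cAMP and 2350.1 in siYT, against 4044 in siNC+8Br-cAMP and 2045 in siNC, and within them WT1 read 204 in siYT+8Br-cAMP and 551 in siYT, against 395 in siNC+8Br-cAMP and 411 in siNC. The granulosa factor FOXL2 read between 659 and 1765, while FSHR, AMHR2 and NR5A1 lay below the floor on every array. Of 4 epithelial markers, EPCAM and CDH1 lay below the floor on every array, KRT7 read 729 to 2260, and MUC1 was above the floor on 3 arrays. Of 3 endothelial markers, CDH5 and VWF lay below it on every array and PECAM1 read 144 to 233. The 4 leukocyte markers were each below it on at least 1 array, with CD79A above it on 3, CD14 on 2, and PTPRC and CD3E on 1, and the highest reading among them was 189. The summed intensity of 4 fibroblast and matrix markers was 12188 in siYT+8Br-cAMP, 44618 in siYT, 29948 in siNC+8Br-cAMP and 36927 in siNC. COL1A1 made up most of each sum. LUM, DCN and PDGFRA were at least 2-fold higher in siYT than in siNC, while COL1A1 was level there (log2 0.03). In siYT+8Br-cAMP against siNC+8Br-cAMP, COL1A1 was lower (-2.05), while LUM (3.09), DCN (1.65) and PDGFRA (0.33) were higher. The part of these marker levels in the results was not tested.

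Of the 9 genes with probe sets, 8 had a probe set above the floor on at least 1 array. BIK, a BH3-only protein of the endoplasmic reticulum, read 10.3 in siYT+8Br-cAMP, 10.4 in siYT, 15.0 in siNC+8Br-cAMP and 7.88 in siNC, below the floor throughout. Among the remaining genes, BCL2L11 and BMF were higher with knockdown, while PMAIP1 and BCL2 were highest in siNC, each gene by its most intense probe set. BCL2L11 was also higher with 8Br-cAMP under either siRNA. BMF was higher with 8Br-cAMP after knockdown, and under control siRNA it was below the floor with and without it. BCL2L1 and BAX were lower with 8Br-cAMP, whichever siRNA the cells had received, and the most intense MCL1 probe set was nearly level.

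**Figure D1:**
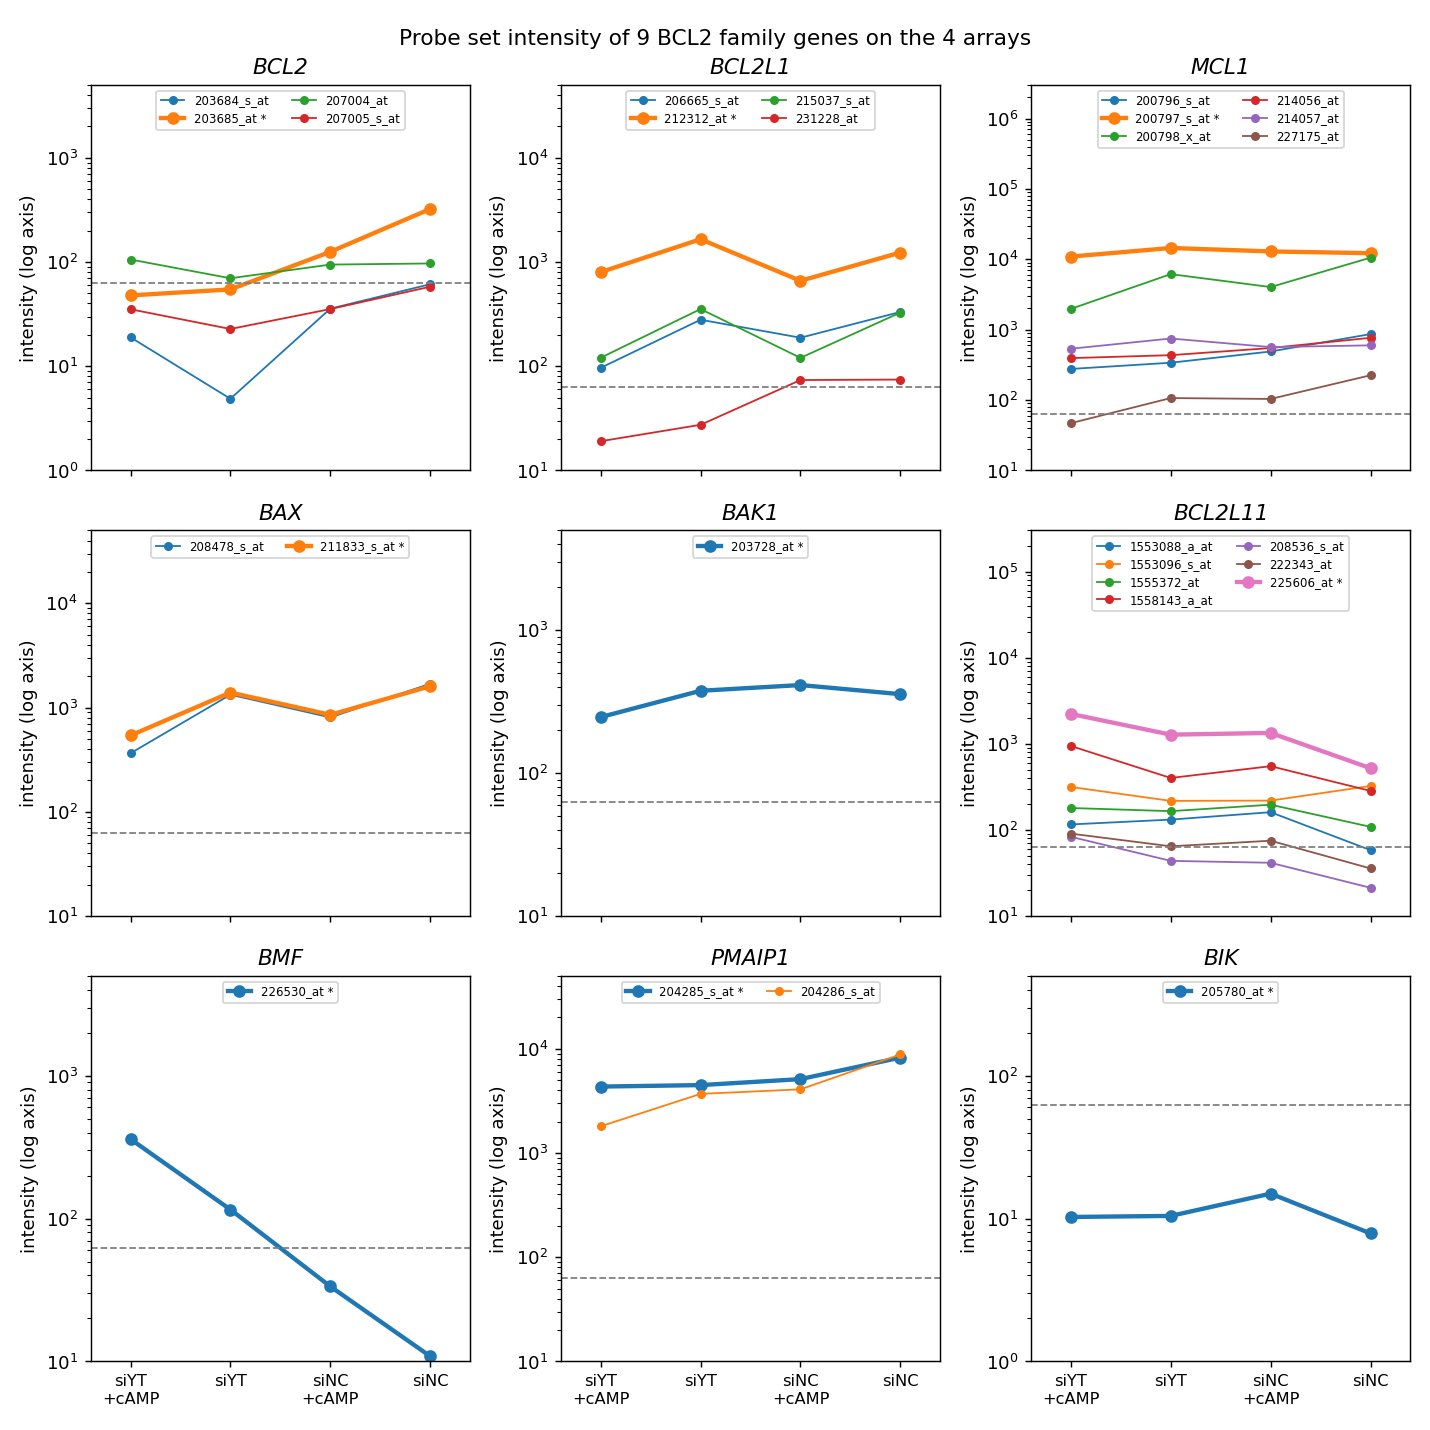
Intensity (log axis) of every probe set of 9 BCL2 family genes on the 4 arrays, 1 panel per gene. Points are single arrays, lines join the values of a probe set, thick lines and asterisks mark the probe set used for gene counts, and the dashed line is the floor of 62.6. BCL2L11 (225606_at) is highest in siYT+8Br-cAMP and lowest in siNC. BMF is highest in siYT+8Br-cAMP and under the floor on both arrays with control siRNA. BAX is lower on both 8Br-cAMP arrays, and BIK stays under the floor.

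The BH3-only gene BCL2L11 encodes BIM, which binds all survival proteins of the family and activates BAX. Its most intense probe set, 225606_at, read 2220 in siYT+8Br-cAMP and 1275 in siYT, against 1335 in siNC+8Br-cAMP and 519 in siNC. The siNC array was the lowest, the siYT+8Br-cAMP array was the highest, and the arrays with either treatment alone lay close together. After knockdown BCL2L11 was higher by 2.45-fold in cells without 8Br-cAMP (log2 1.30) and by 1.66-fold in cells with it (0.73). With 8Br-cAMP it was 2.57-fold higher under control siRNA (1.36) and 1.74-fold higher after knockdown (0.80). Each of these differences was larger than the SD between probe sets. In siYT+8Br-cAMP it was 4.27-fold higher than in siNC. The probe set 1558143_a_at, which read 941 in siYT+8Br-cAMP, 400.4 in siYT, 549 in siNC+8Br-cAMP and 283 in siNC, was higher in all 4 comparisons as well, by log2 0.50 to 1.23.

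The other BCL2L11 probe sets were dimmer and did not all run the same way. Of the 6 probe sets above the floor on either array, 5 were higher and 1 was lower in siYT than in siNC, and the same counts held for siNC+8Br-cAMP against siNC. The lower one was 1553096_s_at each time, which read 315 in siYT+8Br-cAMP and 217 in siYT, against 219 in siNC+8Br-cAMP and 323 in siNC. Of 7 probe sets, 5 were higher and 2 lower in siYT+8Br-cAMP than in siNC+8Br-cAMP, and 6 were higher and 1 lower than in siYT. With the mean of all probe sets of the gene, BCL2L11 differed by 0.42 for siYT minus siNC and by 0.60 for siNC+8Br-cAMP minus siNC, under 2-fold in each.

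BMF is a BH3-only protein that is tethered to the actin motor complex in attached cells. Its probe set 226530_at read 360.5 in siYT+8Br-cAMP and 116 in siYT, against 33.5 in siNC+8Br-cAMP and 10.9 in siNC. Both arrays with control siRNA were below the floor, and both knockdown arrays were above it. After knockdown BMF was therefore higher by at least 1.85-fold in cells without 8Br-cAMP and by at least 5.76-fold in cells with it. After knockdown, 8Br-cAMP was accompanied by a 3.12-fold higher reading (log2 1.64), beyond the SD of 0.53. With control siRNA both readings were below the floor and no fold is given. A lone probe set carries the gene.

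By the probe sets used for gene counts, BCL2L11 and BMF had higher readings after knockdown, and BCL2 and PMAIP1 had lower ones. With 8Br-cAMP present, the PMAIP1 difference (-0.24) was within the SD, and the BCL2 probe set 207004_at was not lower (0.16). The promoters of these genes are shown so that the letters searched can be read in place. They come from RefSeq (GRCh38.p14), run 5' to 3' from 250 bases before to 50 bases after a gene's start, and capitals mark the motifs found on either strand. BMF has a further window, in which none of the motifs searched was found.
BCL2L11 (chr2:111120664-111120963, plus strand): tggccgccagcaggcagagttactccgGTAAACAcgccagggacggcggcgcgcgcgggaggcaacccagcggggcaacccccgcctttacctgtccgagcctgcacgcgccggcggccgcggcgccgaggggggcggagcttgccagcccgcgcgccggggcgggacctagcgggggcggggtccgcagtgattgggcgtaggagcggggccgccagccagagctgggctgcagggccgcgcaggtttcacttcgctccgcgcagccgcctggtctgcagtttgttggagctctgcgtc
BMF (chr15:40108830-40109129, minus strand): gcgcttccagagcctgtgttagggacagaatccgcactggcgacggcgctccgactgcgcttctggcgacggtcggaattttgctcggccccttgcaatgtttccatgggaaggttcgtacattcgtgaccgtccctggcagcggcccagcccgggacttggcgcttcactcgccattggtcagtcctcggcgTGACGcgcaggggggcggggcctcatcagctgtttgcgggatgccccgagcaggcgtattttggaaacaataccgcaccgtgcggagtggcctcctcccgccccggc
BCL2 (chr18:63319720-63320019, minus strand): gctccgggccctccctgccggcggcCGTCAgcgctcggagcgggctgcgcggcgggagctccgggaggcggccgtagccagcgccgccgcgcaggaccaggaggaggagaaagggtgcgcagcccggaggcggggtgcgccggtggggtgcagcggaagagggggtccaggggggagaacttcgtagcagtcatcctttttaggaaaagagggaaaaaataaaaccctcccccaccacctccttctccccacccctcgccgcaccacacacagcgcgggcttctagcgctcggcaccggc
PMAIP1 (chr18:59899746-59900045, plus strand): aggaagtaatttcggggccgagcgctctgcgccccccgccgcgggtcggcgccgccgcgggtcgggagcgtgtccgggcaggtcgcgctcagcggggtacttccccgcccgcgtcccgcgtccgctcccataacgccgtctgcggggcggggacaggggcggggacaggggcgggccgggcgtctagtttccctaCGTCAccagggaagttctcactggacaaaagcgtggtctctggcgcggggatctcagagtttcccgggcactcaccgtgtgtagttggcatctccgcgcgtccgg

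RefSeq windows were found for 8 members, 10 windows in all, since BMF and BCL2L1 have more than 1. MCL1 and BIK had none here. The TEAD motif GGAATG, bound by the partners of YAP and TAZ, was in 1 of the 10 windows (BBC3), and 14% of all 35116 windows hold it. The cyclic AMP response element TGACGTCA was in 0 of 10, against 1.85% of all windows. Its core TGACG, which lies within the full element, was in 5 of 10 (BMF, PMAIP1, BCL2, BAX and BCL2L1), against 24.6%. In BMF it began at base -57 and in PMAIP1 at base -55 from the start site. The FOXO motif GTAAACA was in the BCL2L11 window alone, at base -223, and 3.42% of all windows hold it. The AP-1 motif TGANTCA was in 1 of 10 (BBC3), against 7.71%. A match of letters is a description and shows no binding.

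PMAIP1 encodes NOXA, a BH3-only protein that binds mainly MCL1. Its probe set 204285_s_at read 4339 in siYT+8Br-cAMP and 4482 in siYT, against 5116 in siNC+8Br-cAMP and 8235 in siNC. The probe set 204286_s_at read 1804 in siYT+8Br-cAMP and 3692 in siYT, against 4082 in siNC+8Br-cAMP and 8821 in siNC. By both probe sets siNC was the highest of the 4 arrays. PMAIP1 was lower after knockdown without 8Br-cAMP by log2 differences of -0.88 and -1.26 on the 2 probe sets, and lower with 8Br-cAMP under control siRNA by -0.69 and -1.11, all beyond the SD. The probe sets parted on the siYT+8Br-cAMP array. There 204286_s_at was 2.26-fold lower than in siNC+8Br-cAMP and 2.05-fold lower than in siYT, while 204285_s_at differed by -0.24 and -0.05, within the SD. The brighter of the 2 by mean, which is used in the gene counts, did not reach 2-fold in any comparison.

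Among the survival genes, BCL2, the founding member and a blocker of BIM and PUMA at the mitochondrion, had its highest reading in siNC. Its probe set 203685_at read 47.8 in siYT+8Br-cAMP and 54.6 in siYT, against 125 in siNC+8Br-cAMP and 323 in siNC. Both knockdown arrays were below the floor and both arrays with control siRNA were above it. BCL2 was at least 5.15-fold lower after knockdown without 8Br-cAMP and at least 2-fold lower with it, a bound that lies on the threshold itself and misses it under cyclic loess (log2 -0.93). Under control siRNA it was 2.58-fold lower with 8Br-cAMP (log2 -1.37). The probe set 207004_at read 106 in siYT+8Br-cAMP and 69.8 in siYT, against 94.5 in siNC+8Br-cAMP and 96.8 in siNC. It showed no such pattern, with differences of -0.47 and 0.16 after knockdown and of -0.04 and 0.60 with 8Br-cAMP. The other 2 BCL2 probe sets were below the floor on every array and give no order.

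BCL2L1 encodes BCL-XL, a survival protein that binds BAX, BAK1 and most BH3-only proteins, and by splicing also a short form that promotes death. Its probe set 212312_at read 799.7 in siYT+8Br-cAMP and 1654 in siYT, against 660.5 in siNC+8Br-cAMP and 1233 in siNC. Both 8Br-cAMP arrays were lower than both arrays without it, an order whose share over all genes was not counted. With 8Br-cAMP the reading was 2.07-fold lower after knockdown (log2 -1.05) and 1.87-fold lower under control siRNA (-0.90). After cyclic loess or quantile normalization the value after knockdown was -0.98, short of 2-fold. The probe sets 206665_s_at and 215037_s_at were lower too, by -1.53 and -1.55 after knockdown and by -0.82 and -1.44 under control siRNA, so that 3 of 3 probe sets above the floor passed the SD after knockdown and 3 of 4 under control siRNA. For knockdown these 3 probe sets gave -0.25 to 0.42 without 8Br-cAMP and -0.96 to 0.28 with it. The fourth probe set, 231228_at, was at most 74.5, close to the floor. The probe sets do not separate the splice forms here.

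MCL1, a short-lived survival protein that restrains BAK1 and is the main partner of NOXA, was read differently by its 6 probe sets. The most intense, 200797_s_at, read 10928 in siYT+8Br-cAMP and 14473 in siYT, against 12928 in siNC+8Br-cAMP and 12210 in siNC. Its differences, 0.25 and -0.24 after knockdown and 0.08 and -0.41 with 8Br-cAMP, were all within the SD. The probe set 200798_x_at read 1974 in siYT+8Br-cAMP and 6155 in siYT, against 4033 in siNC+8Br-cAMP and 10552 in siNC. By that probe set MCL1 was 2.62-fold lower with 8Br-cAMP under control siRNA, 3.12-fold lower with it after knockdown, and 5.35-fold lower in siYT+8Br-cAMP than in siNC. The suffix marks a probe set that may also bind other transcripts.

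The other MCL1 probe sets were dimmer. The probe set 200796_s_at read 277 in siYT+8Br-cAMP and 339 in siYT, against 490.1 in siNC+8Br-cAMP and 866 in siNC, and 214057_at read 536 in siYT+8Br-cAMP and 749 in siYT, against 566 in siNC+8Br-cAMP and 599 in siNC. After knockdown, 200796_s_at was lower by log2 -1.35 and -0.82, and 214057_at differed by 0.32 and -0.08. The remaining probe sets, 214056_at and 227175_at, were lower by -0.82 and -1.08 without 8Br-cAMP. With it they were lower by -0.48 and -0.73, the last a bound. Counted over all 6, 4 were lower beyond the SD in siYT than in siNC, 3 in siYT+8Br-cAMP than in siNC+8Br-cAMP, 4 in siNC+8Br-cAMP than in siNC and 2 in siYT+8Br-cAMP than in siYT. None of the 6 was higher beyond the SD in these 4 comparisons. No common value for MCL1 can therefore be given, and the source of the disagreement was not tested.

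**Figure D2:**
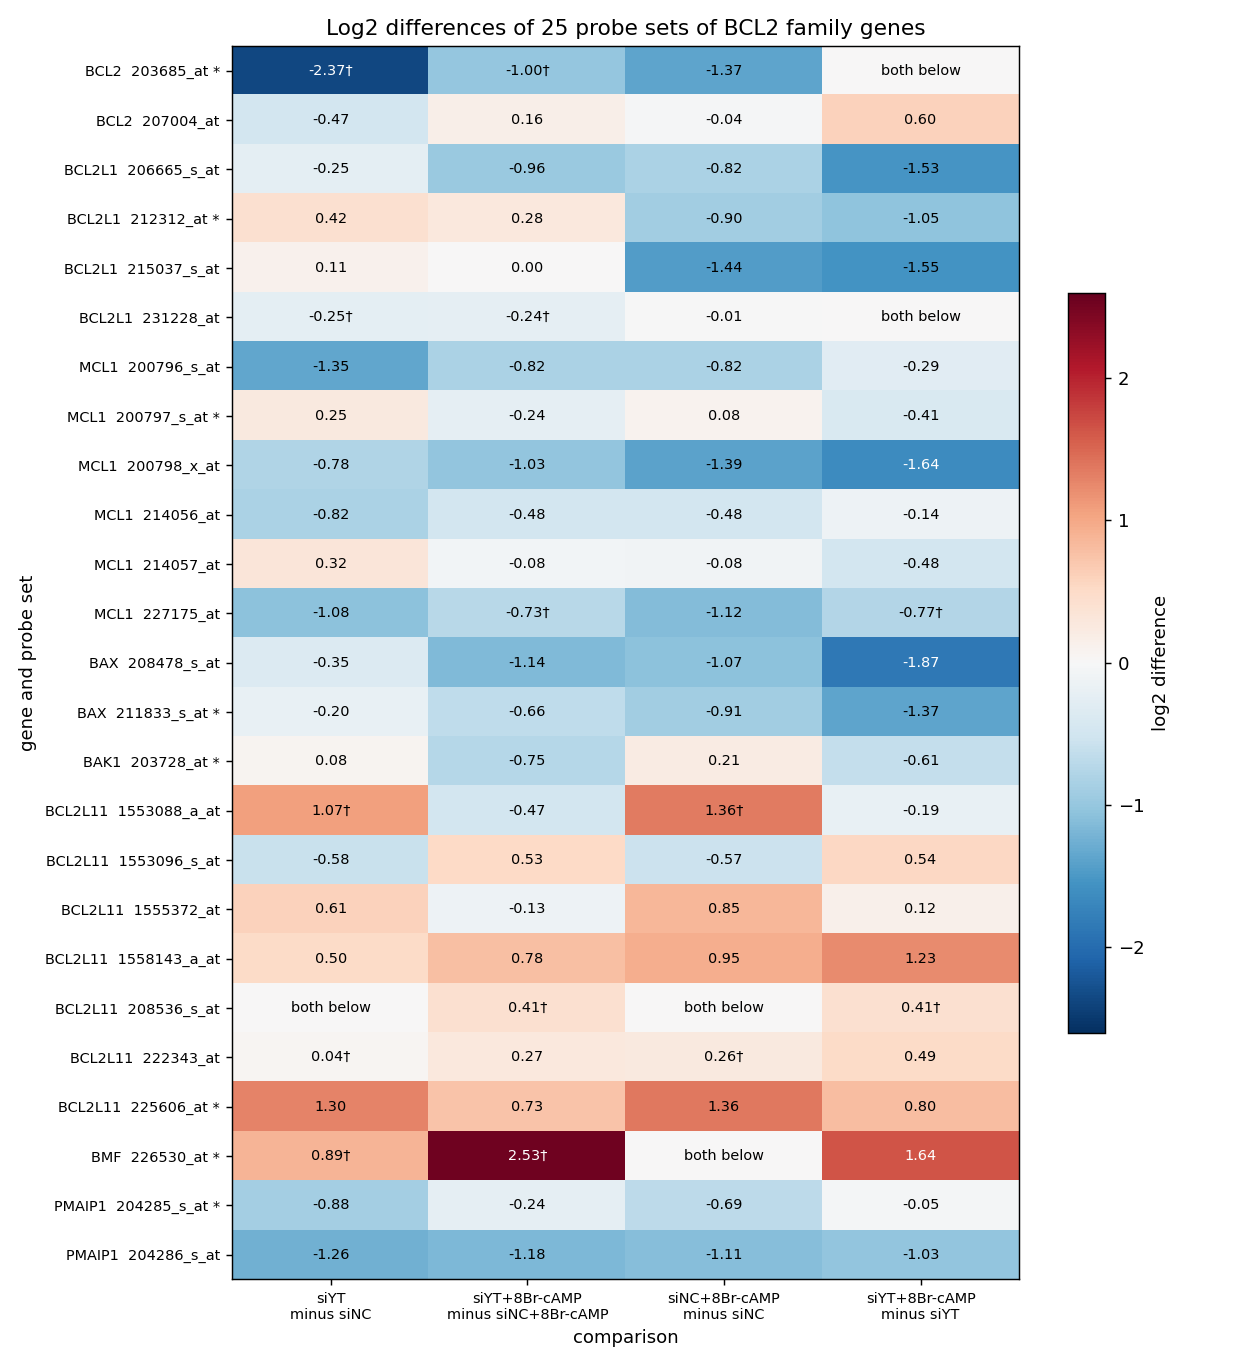
Log2 differences (colour and printed value) of the 25 probe sets above the floor on at least 1 array, for 2 knockdown and 2 8Br-cAMP comparisons. Rows are probe sets, an asterisk marks the one used for gene counts, a dagger marks a bound where the lower array is below the floor, and "both below" marks pairs without a difference. The 2 BAX rows and the 2 PMAIP1 rows are negative in all 4 columns, while the 6 MCL1 rows range from -1.64 to 0.32.

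The effector BAX, which moves from the cytosol to the mitochondrion and forms the pore, was lower on both 8Br-cAMP arrays. The probe set 211833_s_at read 539 in siYT+8Br-cAMP and 1392 in siYT, against 851 in siNC+8Br-cAMP and 1599.8 in siNC. The probe set 208478_s_at read 364 in siYT+8Br-cAMP and 1327 in siYT, against 803 in siNC+8Br-cAMP and 1691 in siNC. On both, each 8Br-cAMP array read lower than each array without it. How many of all genes show this order was not counted, so it carries no weight of its own. With 8Br-cAMP the log2 differences were -0.91 and -1.07 under control siRNA and -1.37 and -1.87 after knockdown, all beyond the SD. For knockdown alone they were -0.20 and -0.35, within the SD of 0.39. With 8Br-cAMP present, knockdown was accompanied by -0.66 and -1.14, beyond the SD of 0.54. The values of -0.66, -1.14, -1.37 and -1.87 rest on the siYT+8Br-cAMP array, the one with the higher ACTB ratio.

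BAK1, the effector that resides in the mitochondrial membrane and is held by MCL1 and BCL-XL, read 247 in siYT+8Br-cAMP and 377 in siYT, against 414 in siNC+8Br-cAMP and 357 in siNC. The siYT+8Br-cAMP array was the lowest, and the other 3 lay close together. BAK1 differed by 0.08 without and -0.75 with 8Br-cAMP after knockdown, and by 0.21 under control siRNA and -0.61 after knockdown with 8Br-cAMP. The negative differences pass the SD, and both use the siYT+8Br-cAMP array.

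Counted by gene, 2 of the 8 members reached 2-fold after knockdown without 8Br-cAMP: BCL2L11 was higher, against 7.3% of all 14427 genes, and BCL2 was lower, against 6.05%. With 8Br-cAMP present, BMF was higher, against 6.74%, and BCL2 was lower, against 9.48%. BCL2 was the lone member at 2-fold the same way in both knockdown comparisons, where 2.81% of genes were lower in both and 2.38% higher in both. Its representative probe set exceeded the floor only with control siRNA, and that of BMF only after knockdown. The floor filter thus kept each through the arrays where it is high. The second BCL2 value is a bound on the threshold itself, and the BCL2 probe set 207004_at gave -0.47 and 0.16. Of the 25 member probe sets, 2 were higher and 4 lower in siYT than in siNC, against 7.32% and 6.04% of all probe sets above the floor, and 1 was higher and 4 lower in siYT+8Br-cAMP than in siNC+8Br-cAMP, against 6.93% and 9.4%. With 1 gene a direction, the gene counts cannot be told from the background and say nothing of the family as a whole. The counts of lower probe sets lie above their shares, but this was not tested, and probe sets of a gene are not independent. The median difference of the 8 genes was 0.16 without and -0.24 with 8Br-cAMP, against 0.00 over all genes in each.

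With 8Br-cAMP under control siRNA, BCL2L11 was at least 2-fold higher, against 4.34% of genes, and BCL2 was lower, against 5.22%. After knockdown, BMF was higher, against 5.0%, and BAX and BCL2L1 were lower, against 9.88%. No member reached 2-fold the same way in both 8Br-cAMP comparisons, a background of 1.46% for higher and 2.08% for lower genes. BAX (log2 -0.91) and BCL2L1 (-0.90) stopped just short of it under control siRNA. By probe set, 2 were higher and 6 lower in siNC+8Br-cAMP than in siNC, against 4.42% and 5.17%, and 2 were higher and 7 lower in siYT+8Br-cAMP than in siYT, against 4.92% and 9.82%. Of the lower ones, 2 of 6 and 5 of 7 were probe sets of BCL2L1 or BAX. Probe sets of a gene share their target and array and are not independent. The gene medians were -0.34 and -0.23, against 0.00 over all genes in each.

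**Figure D3:**
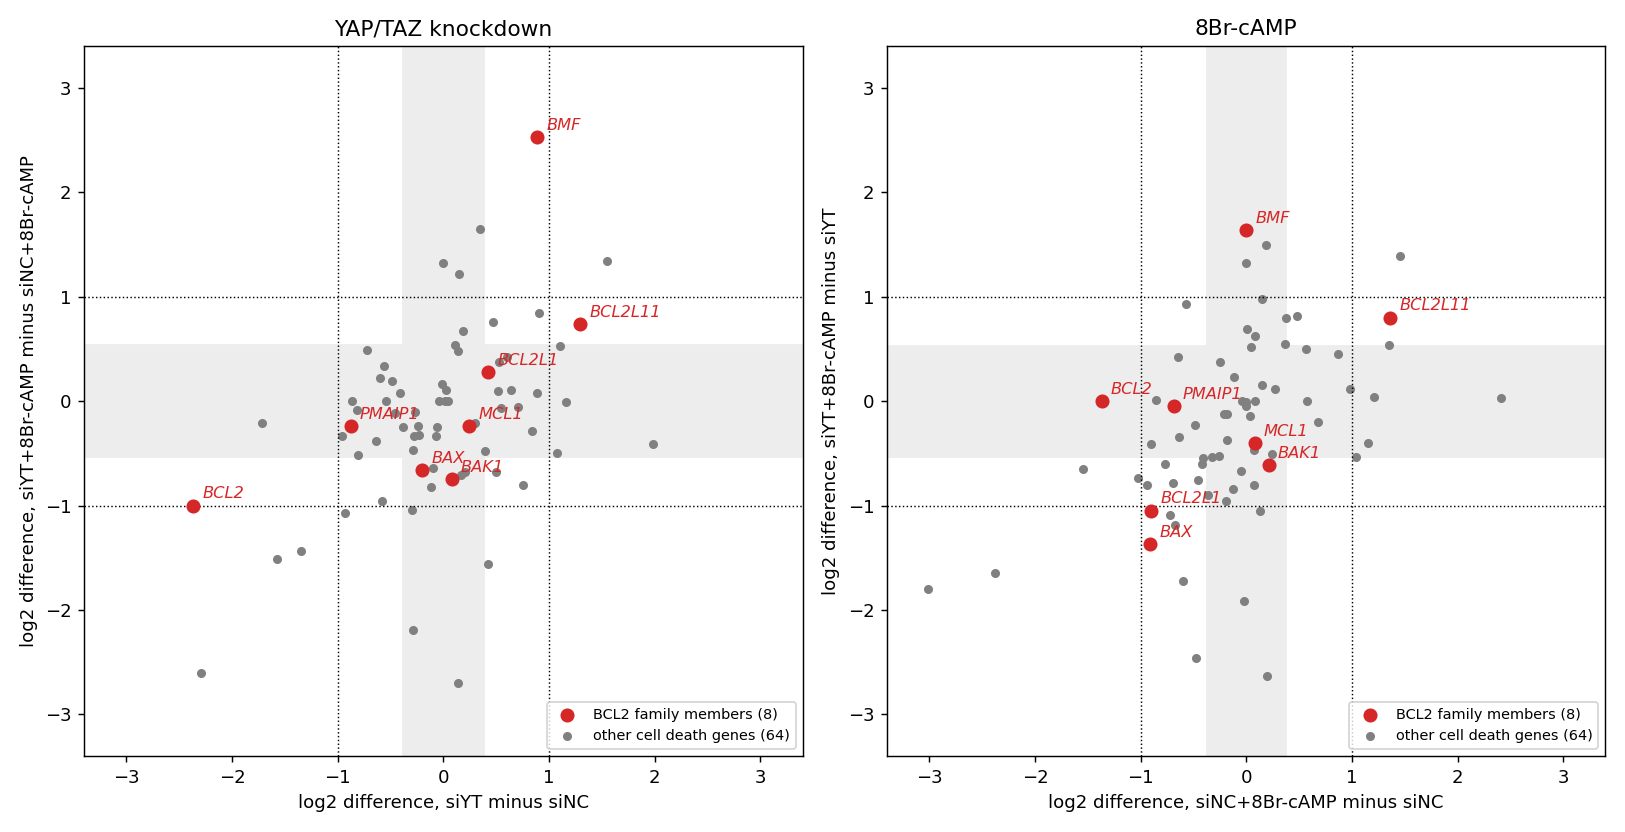
Log2 differences of single genes, left for knockdown (without 8Br-cAMP on the x axis, with it on the y axis), right for 8Br-cAMP (under control siRNA on the x axis, after knockdown on the y axis). Red points are the 8 members. Grey points are 64 genes of the other lists, cell death genes together with transcriptional regulators of BH3-only genes. Dotted lines mark 2-fold and grey bands the SD between probe sets. BMF (at least 5.76-fold) and BCL2 (at least 5.15-fold) lie farthest out among the members on the left, and BAX and BCL2L1 lie together at lower left on the right.

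The arrays with both treatments and with neither were compared as well. BCL2L11 and BMF were at least 2-fold higher in siYT+8Br-cAMP than in siNC, against 10.8% of genes, and BCL2 and BAX were at least 2-fold lower, against 13.8%. BAX was 2.97-fold lower and BCL2 at least 5.15-fold lower. In the difference of differences, which asks whether knockdown differed between the presence and absence of 8Br-cAMP, BMF (log2 1.64) and BCL2 (1.37) passed 2-fold, against 5.39% of genes higher and 9.56% lower. Both rest on arrays below the floor, and without the floor the values were 0.02 for BMF and 1.17 for BCL2. By representative probe set, no member above the floor on all 4 arrays reached 2-fold in it, and BAK1 was the lowest of those at -0.82. Dimmer BCL2L11 probe sets passed 2-fold in opposite directions. The probe set 1553096_s_at, above the floor on all 4 arrays, gave 1.10, and 1553088_a_at, with siNC below the floor, gave -1.54.

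At 1.5-fold in either direction, 4 members passed for siYT minus siNC (32.8% of all genes did), 5 for siYT+8Br-cAMP minus siNC+8Br-cAMP (37.8%), 5 for siNC+8Br-cAMP minus siNC (26.8%) and 5 for siYT+8Br-cAMP minus siYT (36.4%). For siYT+8Br-cAMP minus siNC 6 passed (46.5%), and for the difference of differences 4 (36.4%). An additive limma fit over 14427 genes has the departure from additivity as its error term. It called 0 of the 8 members for knockdown (1.78% of all genes) and 0 for 8Br-cAMP (0.139%) after Benjamini-Hochberg adjustment, with 3 members at an unadjusted p under 0.05 for each, as 19.8% of all genes were for knockdown and 15.6% for 8Br-cAMP. The smallest adjusted p in limma was 0.104 for BCL2 under knockdown (mean log2 difference -1.68, lower in 2 of 2 comparisons) and 0.162 for BAX with 8Br-cAMP (-1.14, lower in 2 of 2). The BCL2 value uses 2 floored arrays. BCL2L11 had unadjusted limma p-values of 0.0128 and 0.00973 for the 2 factors (limma adjusted p 0.148 and 0.188). The comparisons siYT minus siNC and siNC+8Br-cAMP minus siNC do not use the siYT+8Br-cAMP array, and all others rest on it.

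The genes whose pattern over the 4 arrays lay nearest were sought for the 2 members with the widest range among those above the floor on every array. For BCL2L11 these were MAST4, SNHG18 and ARID2, with a root mean square difference of 0.02, 0.05 and 0.05 on the centred log2 scale. For BAX they were AEN, POLR3F and IGF2BP3, with 0.01, 0.04 and 0.04. With 4 arrays and 10794 genes searched, close matches are a description of these arrays alone, and AEN at 74.3 to 216 lay near the floor.

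The further members of the family were read for comparison, and 11 of the 13 listed were above the floor on at least 1 array. BID, the BH3-only protein that links death receptors to the mitochondrion, read 1056 in siYT+8Br-cAMP and 2256 in siYT, against 2047 in siNC+8Br-cAMP and 3382 in siNC. All 3 of its probe sets were lower with 8Br-cAMP, by log2 -1.09 to -1.61 after knockdown and -0.60 to -0.72 under control siRNA. HRK, a BH3-only protein best known from neurons, was 2.91-fold lower in siNC+8Br-cAMP than in siNC (95.7 against 278), and BCL2L12 was 2.04-fold lower. BOK, a BAX-like protein first found in the rat ovary, was lower after knockdown by -0.93 without and -1.07 with 8Br-cAMP. In all, 2 of the 11 reached 2-fold upward and 0 downward in siYT against siNC, 0 and 2 in siYT+8Br-cAMP against siNC+8Br-cAMP, 1 and 2 in siNC+8Br-cAMP against siNC, and 0 and 2 in siYT+8Br-cAMP against siYT. Over all genes the shares higher and lower were 7.3% and 6.05%, 6.74% and 9.48%, 4.34% and 5.22%, and 5.0% and 9.88% in the same order, and they hold for the lists that follow. Chosen after their values were seen, the others among these are BAD (1.16 for siYT minus siNC and 1.21 for siNC+8Br-cAMP minus siNC), BNIP3 (1.11 for siYT minus siNC), BCL2L2 (-1.05 for siYT+8Br-cAMP minus siNC+8Br-cAMP) and BNIP3L (-1.05 for siYT+8Br-cAMP minus siYT).

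Downstream of the mitochondrion, 13 genes of the apoptosome and caspases were read. None reached 2-fold in siYT against siNC or in siNC+8Br-cAMP against siNC, and 1 was lower in each comparison that uses the siYT+8Br-cAMP array. That gene was CASP6, an executioner caspase, at 106 in siYT+8Br-cAMP and 402 in siYT, against 485 in siNC+8Br-cAMP and 492 in siNC. CYCS, the cytochrome c that leaves the mitochondrion when BAX and BAK1 open it, read 33885 in siYT+8Br-cAMP and 17213 in siYT, against 29026 in siNC+8Br-cAMP and 26162 in siNC. AIFM1, a mitochondrial flavoprotein, was lower by -0.96 in siYT than in siNC and by -0.33 in siYT+8Br-cAMP than in siNC+8Br-cAMP. DFFB, the caspase-activated nuclease, differed by 0.71 and -0.06 in the same comparisons.

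Among 6 genes of the inhibitor of apoptosis proteins, BIRC5 had the largest mean difference. BIRC5, or survivin, is a mitotic protein as well as a caspase regulator, and it read 196 in siYT+8Br-cAMP and 331 in siYT, against 1189 in siNC+8Br-cAMP and 1626 in siNC. After knockdown it was lower by 4.92-fold in cells without 8Br-cAMP and by 6.07-fold in cells with it. XIAP, the direct caspase inhibitor, was 2.33-fold higher in siYT+8Br-cAMP than in siNC+8Br-cAMP by its representative probe set (2240 against 962). Its probe set 228363_at ran the other way, at 140.45 in siYT+8Br-cAMP and 3212 in siYT, against 2026 in siNC+8Br-cAMP and 2046 in siNC. XAF1, a binder of XIAP, was 2.27-fold lower in siYT+8Br-cAMP than in siYT, and BIRC7, a caspase-binding member, differed by at least log2 -1.72 there, with siYT+8Br-cAMP below the floor.

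Among 11 genes of death receptors and adaptors, 2 were higher and 1 lower in siYT than in siNC, 1 higher and 0 lower in siYT+8Br-cAMP than in siNC+8Br-cAMP, 3 and 0 in siNC+8Br-cAMP than in siNC, and 1 and 0 in siYT+8Br-cAMP than in siYT, beside all-gene shares of 7.3% and 6.05%, 6.74% and 9.48%, 4.34% and 5.22%, and 5.0% and 9.88%. TNFSF10, the death ligand TRAIL, read 2156 in siYT+8Br-cAMP and 2118 in siYT, against 2864 in siNC+8Br-cAMP and 537 in siNC. By this probe set, 202688_at, and by 202687_s_at, the siNC array was the lowest, with 3.94-fold for knockdown and 5.33-fold for 8Br-cAMP, each alone, on 202688_at. The probe set 214329_x_at read 143 in siYT+8Br-cAMP and 821 in siYT, against 108 in siNC+8Br-cAMP and 177 in siNC. It was likewise higher in siYT than in siNC (log2 2.22) but lower in siNC+8Br-cAMP than in siNC (-0.71). TNFRSF10D, a decoy receptor for TRAIL, read 1236 in siYT+8Br-cAMP and 439.7 in siYT, against 394 in siNC+8Br-cAMP and 347 in siNC. CFLAR, which keeps caspase-8 inactive, was 3.29-fold lower in siYT than in siNC by its representative probe set, and its 11 probe sets above the floor ranged from -1.72 to 0.77. TNFRSF1A, the main TNF receptor, was higher by 1.35 in siNC+8Br-cAMP than in siNC and was named after its value was seen. TNFRSF21, a death receptor of the same superfamily, was 2.10-fold higher in siYT than in siNC and 2.05-fold higher in siNC+8Br-cAMP than in siNC.

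Of 10 genes for outer membrane partners and for the turnover of MCL1, FBXW7, a ubiquitin ligase subunit that marks MCL1, was higher after knockdown, by 2.93-fold in cells without 8Br-cAMP and by 2.53-fold in cells with it, by the probe set 229419_at. It read 693 in siYT+8Br-cAMP and 1004 in siYT, against 274 in siNC+8Br-cAMP and 342 in siNC. The probe sets 218751_s_at and 222729_at gave log2 1.67 and 0.94 without 8Br-cAMP but 0.81 and 0.23 with it, and 0.23 lies within the SD of 0.54. HUWE1, another ligase of MCL1, was 6.47-fold lower in siYT+8Br-cAMP than in siNC+8Br-cAMP by the probe set 207783_x_at, at 11176 against 72347. Its probe set 208598_s_at read 2299.8 against 2932, a difference of -0.35, so the representative value is not borne out within the gene. DYNLL2, the light chain that holds BMF on the actin motor, differed by 0.75 without and -0.80 with 8Br-cAMP after knockdown and by 1.16 in siNC+8Br-cAMP minus siNC by its representative probe set. Its probe set 229106_at gave -0.59, 0.10 and -0.07 in the same comparisons, and 238467_at gave 0.57, 0.53 and -0.37, so no direction is given for it. BTRC, a ligase subunit, differed after knockdown by 0.17 without and -0.71 with 8Br-cAMP, while its 2 other probe sets gave -0.69 and -0.80 without and -0.74 and -0.98 with it.

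**Figure D4:**
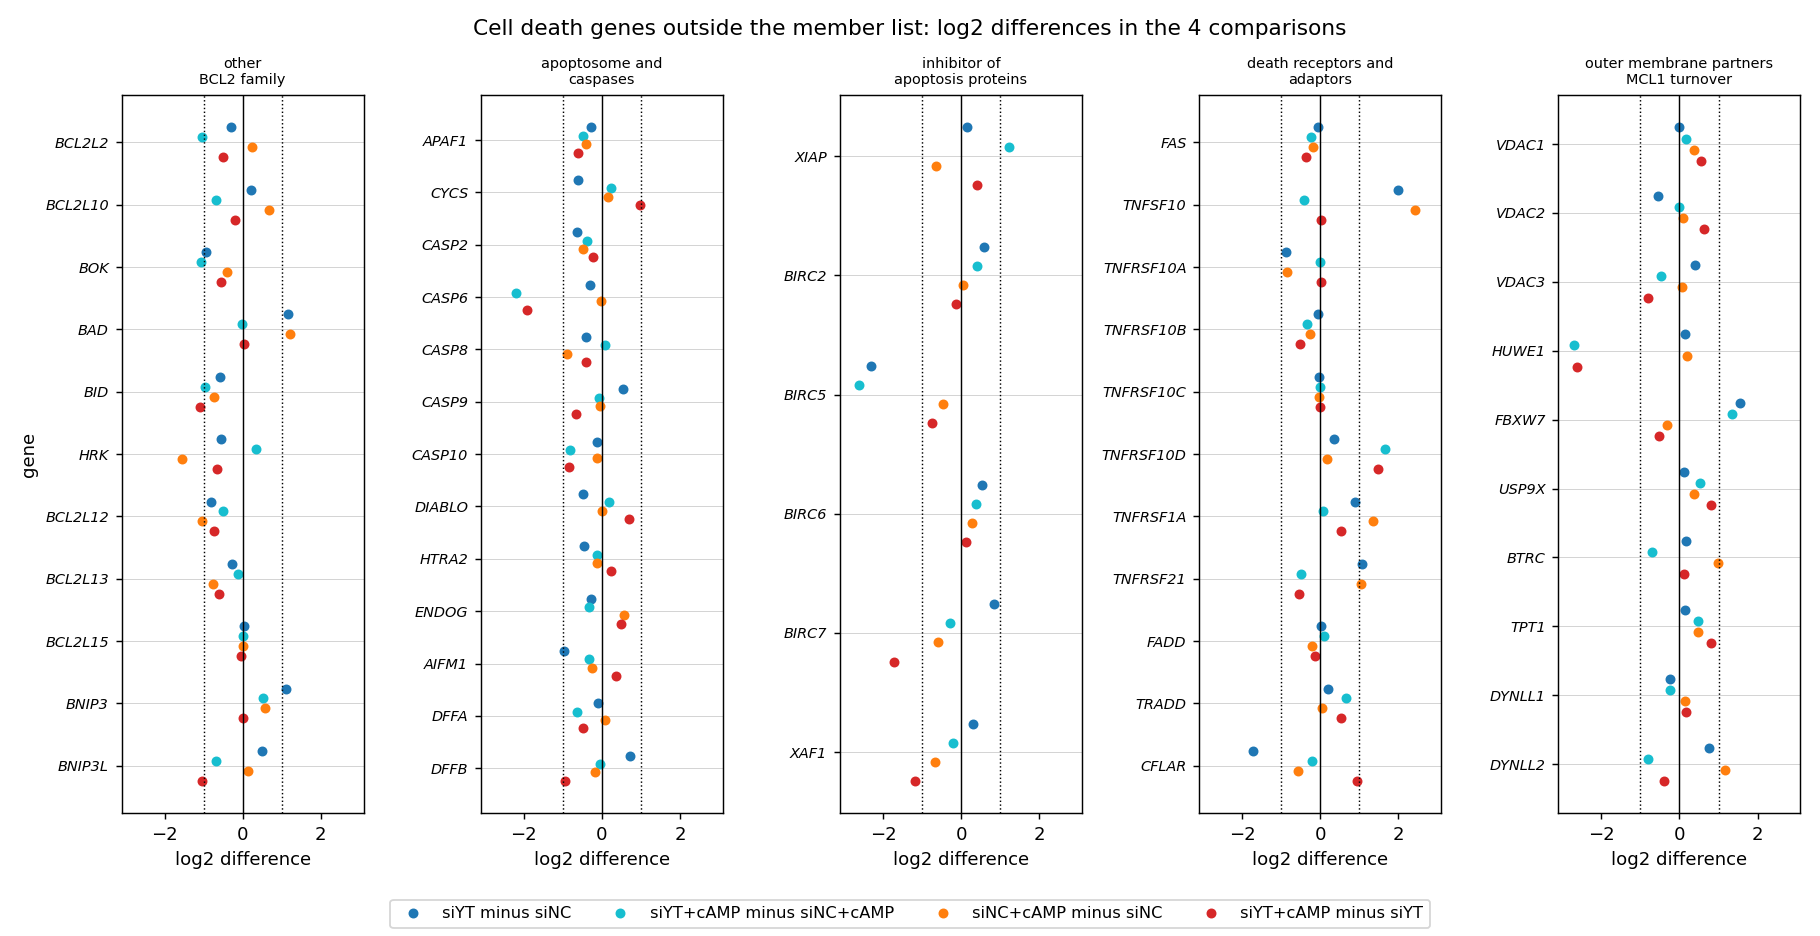
Log2 differences (x axis) of genes on 5 lists of cell death genes outside the 10 members, by the most intense probe set of each gene above the floor on at least 1 array. Each row is a gene, each colour 1 of 4 comparisons between single arrays, and dotted lines mark 2-fold. BIRC5 lies beyond the lower line and FBXW7, by this probe set, beyond the upper line for knockdown with and without 8Br-cAMP, and most other genes lie within 2-fold.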

How the data were processed

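Total RNA of 4 KGN cultures was labelled as cRNA by 3' in vitro transcription, per the labels' protocols. Intensity per probe set was deposited, made by the authors with RMA in Affymetrix Expression Console, per the submitters' processing notes, which give no version. The linear scale and a trimmed mean of 500.1 on each array are not those of RMA output, so the summary behind the values stays unknown, and low values are treated as bounds. Of 54675 probe sets, 41097 had 1 symbol, 1801 several and 11777 none, and 41043 were matched by gene identifier, with 0 symbols altered.

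Values below 62.6 were set to that floor, log2 was taken, and arrays were not normalized further. Each gene's brightest probe set by mean log2 value stands for it. A gene had to exceed the floor on 1 or more arrays, which 14427 did, and sizes were compared at 2-fold, with no test. An additive fit used limma 3.58.1 in R 4.3.3, tested on simulated data. Python 3.11.15 and pandas 2.3.3 did the rest. Precision is limited by 1 array per group.

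The members, the gene lists and the floor were chosen with earlier results of these data known. Named are all member probe sets, up to 4 genes of each list with the largest mean absolute difference, and the 3 nearest patterns of 2 members. Alternatives were no floor, a floor 4 times as high, the mean of all probe sets, no probe sets with shared suffixes, cyclic loess, quantile normalization, 1.5-fold and the additive fit. Leaving out the siYT+8Br-cAMP array was added after seeing the data.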

Additional observations from a re-analysis of the deposited data

How the results depend on the processing

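Of 276 single-member values recomputed under an alternative, 248 moved by less than the SD between probe sets, 28 moved by more, and 0 of those at 2-fold turned their sign. All 48 values each under cyclic loess and under quantile normalization moved by less. So did all 36 without probe sets of a shared suffix, but BAX and PMAIP1 drop out there, which leaves 6 members. Of these MCL1 alone changes its probe set, so the values of the others could not move. Members above the floor on every array cannot move without the floor, nor members with 1 probe set under the mean. The 248 therefore include values fixed in advance. The number of members at 2-fold was 2 for siYT minus siNC, and it was 1 with the floor at 4 times the median, 1 with the mean of all probe sets and 4 at 1.5-fold. For siYT+8Br-cAMP minus siNC+8Br-cAMP it was 2, and 0, 1 and 5 under the same alternatives, and 1 with cyclic loess, where the BCL2 bound was -0.93. For siNC+8Br-cAMP minus siNC it was 2, and 1, 0 and 5. For siYT+8Br-cAMP minus siYT it was 3, and 5 at 1.5-fold, and it was 2 under each of cyclic loess, quantile normalization, the higher floor and no shared suffixes. BCL2L1 there missed 2-fold at -0.98 under both normalizations. For siYT+8Br-cAMP minus siNC it was 4, and 2 with the higher floor, 3 without shared suffixes, 5 with the mean of all probe sets, 5 with cyclic loess and 6 at 1.5-fold. For the difference of differences it was 2, and 1 without a floor, 0 with the higher floor, 1 with the mean of all probe sets and 4 at 1.5-fold. The 1 member at 2-fold in both knockdown comparisons became 0 in the additive fit. The higher floor ends the BCL2 and BMF calls by its construction. Without shared suffixes, BAX is no longer counted, since it has no other probe sets. In the mean of all probe sets, 2 of the 4 BCL2 probe sets are floored on every array and add differences of 0. The cause of the other shifts was not tested. Leaving out the siYT+8Br-cAMP array, an alternative added after seeing the data, moves only the floor (to 61.3) for siYT minus siNC and siNC+8Br-cAMP minus siNC, which do not use that array, and so checks neither. No paired analysis was possible because each group holds 1 array. With BMF and BCL2 close to the floor, low signal limits their folds to bounds.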

Other observations

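Transcription factors and cofactors that regulate BH3-only genes were read as a further list, of which 13 of 15 were above the floor on at least 1 array. At 2-fold 0 were higher and 2 lower in siYT than in siNC, 1 and 3 in siYT+8Br-cAMP than in siNC+8Br-cAMP, 1 and 2 in siNC+8Br-cAMP than in siNC, and 2 and 3 in siYT+8Br-cAMP than in siYT. Over all 14427 genes these shares were 7.3% and 6.05%, 6.74% and 9.48%, 4.34% and 5.22%, and 5.0% and 9.88%. MYC and E2F1, factors of cell growth and division, and TP73 are among them and were named after their values were seen. MYC was lower after knockdown by log2 differences of -1.57 without and -1.51 with 8Br-cAMP, and E2F1 by -1.35 and -1.44, bounds set by knockdown arrays below the floor. TP73 was above the floor in siYT+8Br-cAMP alone, by at least 1.32 against siNC+8Br-cAMP and against siYT. DDIT3, the stress factor CHOP, read 892 in siYT+8Br-cAMP and 3095 in siYT, against 635 in siNC+8Br-cAMP and 5119 in siNC, so that it was 3.47-fold lower with 8Br-cAMP after knockdown and 8.07-fold lower with it under control siRNA. TRIB3, a pseudokinase induced with CHOP, was 3.12-fold and 5.18-fold lower in the same comparisons. FOXO4, of the factor family that binds the FOXO motif, read 312 in siYT+8Br-cAMP and 119 in siYT, against 174 in siNC+8Br-cAMP and 63.7 in siNC, the last close to the floor. It was 2.61-fold higher with 8Br-cAMP after knockdown and 2.73-fold higher under control siRNA. CREB1, the cyclic AMP response element binding protein, was 5.50-fold lower in siYT+8Br-cAMP than in siYT by the probe set 225572_at, at 418 against 2298, while its 6 other probe sets above the floor differed by -0.92 to 0.37.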
